A study of Homo sapiens with 15 samples.

Results

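Chemokines recruit immune cells by binding receptors on their surface, and cytokines of the IL6 family act on target cells through the shared receptor subunit gp130. The genes described here are 5 chemokines that carry the CXC cysteine motif (CXCL1, CXCL2, CXCL3, CXCL8 and CXCL12), the CC chemokine CCL2, the IL6 family cytokines IL6, IL11 and LIF, and CSF1, the macrophage growth factor. They were taken by symbol from the table of read counts, and all 10 of the 10 listed genes were found among its 15510 gene rows. All 10 passed the filter on low counts and were among the 13599 genes tested. CXCL12 did so through the libraries of 1 line alone, AKTmyr.

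Poly(A) RNA of 5 human lines was sequenced, with 3 libraries per line. ARPE19 is an established retinal pigment epithelial line, and the other 4 lines were made from it by transfection. RasV12 is labelled as carrying pbabe-hTERT+p53DD, pbabe-cyclinD1+CDK4R24C and pWZL-H-RasV12, which encodes an active H-RAS, and as transformed. MekDD carries the first 2 of these with pBabe-Puro-MEK-DD, an active MEK, and is labelled weakly transformed, while AKTmyr carries them with pBabe-myr-HA-Akt, a membrane-bound AKT, and is labelled transformed. T53D4, called primed, carries the first 2 alone and is labelled not transformed, as is ARPE19, which was not transfected. hTERT is the catalytic subunit of telomerase, p53DD a dominant negative p53 fragment and CDK4R24C a mutant of the cyclin D1 partner kinase CDK4. Each construct combination is 1 line, and each replicate came from its own thawed vial passaged before extraction. The p-values therefore measure the spread between vials of a line and not between independent transfections.

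Reads on genes ranged from 20625626 to 46549693 per library. The HRASV12, MEKDD and AKT construct rows were highest in the line labelled with each. ARPE19, labelled as not transfected, still had 193 ± 41.6 CPM on the cyclin D1 row and 70.7 ± 12 CPM on the CDK4R24C row. Its HRASV12 and AKT rows had 20.7 ± 6.66 and 104 ± 5.11 CPM. By that label these rows also count reads from outside the constructs. The cyclin D1 and CDK4R24C construct rows did not separate the libraries labelled T53D4 from ARPE19, with log2 differences of -0.40 (SE 0.21) and 0.38 (SE 0.15) and edgeR adjusted p = 0.511 and 0.382. They therefore do not bear out that part of the T53D4 label, and their share of construct RNA is not known. The hTERT and p53DD rows did fit the label, with 879 ± 147 and 70.7 ± 20.1 CPM in T53D4, against 0.176 ± 0.0538 and 0.00976 ± 0.0169 CPM in ARPE19 (adjusted p = 2.61e-11 and 1.71e-08). In MekDD the CDK4R24C row was above ARPE19 (1.01, adjusted p = 0.000729) and the cyclin D1 row was not shown to be (0.48, adjusted p = 0.16), and in RasV12 both were well above ARPE19 (5.07 and 3.61), as in AKTmyr (3.83 and 2.15). MekDD against T53D4 also differed in the rows of all 4 shared constructs, with log2 0.89 for cyclin D1, 0.62 for CDK4R24C, -1.13 for p53DD and -0.95 for hTERT (adjusted p = 0.0233, 0.0225, 0.0221 and 0.0112). Each of the 3 oncogene lines therefore differed from T53D4 in rows of shared constructs as well as in the oncogene, and their parts cannot be told apart. Adjusted p-values throughout are Benjamini-Hochberg values over all tested genes, from the quasi-likelihood test of edgeR. Every direction against T53D4 below is drawn against libraries so labelled, and for the 10 genes each oncogene line is also set against ARPE19. Tests of single genes outside the 10 are given against T53D4. Of 10 retinal pigment epithelium markers all were in the table, led by the keratin KRT8 with 579 to 1740 CPM, while RPE65, the retinoid isomerase that defines mature pigment epithelium, stayed at or below 0.154 CPM in every library. RasV12 replicate 3 stood apart from RasV12 replicates 1 and 2 in the genes described here, so results that rest on it are given with and without it.

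As background, CXCL1, CXCL2, CXCL3 and CXCL8 attract neutrophils through the receptor CXCR2, CCL2 attracts monocytes through CCR2, and CXCL12 acts on CXCR4 and is also bound by the scavenger receptor ACKR3. IL6, IL11 and LIF signal through JAK kinases and STAT3, and CSF1 sustains macrophages through CSF1R. Many of these genes are switched on by NF-kB, C/EBP and AP-1 transcription factors, and retinal pigment epithelium is a known source of CCL2, CXCL8 and IL6.

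The 4 neutrophil-attracting CXC genes lie on chromosome 4. Their promoters are shown because all 4 were called higher in RasV12 than in T53D4, CXCL1 and CXCL8 only with RasV12 replicate 3 included. The promoter of IL6 is shown beside them as a gene with a match to the same motif but no difference that passed the test. Each sequence holds the 200 bases before the RefSeq start of the gene (GRCh38.p14), 5′ to 3′ on the gene's own strand, in lower case with motif matches in capitals. The windows are chr4:73740369-73740568 on the plus strand for CXCL8, chr4:73869193-73869392 on the plus strand for CXCL1, chr4:74099196-74099395 on the minus strand for CXCL2, chr4:74038690-74038889 on the minus strand for CXCL3 and chr7:22727000-22727199 on the plus strand for IL6. A RefSeq start can lie inside the gene span of the deposited annotation.
CXCL8: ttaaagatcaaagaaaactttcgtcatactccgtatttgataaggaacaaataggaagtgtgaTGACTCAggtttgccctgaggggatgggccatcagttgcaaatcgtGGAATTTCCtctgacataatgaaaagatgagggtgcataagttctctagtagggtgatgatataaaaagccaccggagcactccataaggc
CXCL1: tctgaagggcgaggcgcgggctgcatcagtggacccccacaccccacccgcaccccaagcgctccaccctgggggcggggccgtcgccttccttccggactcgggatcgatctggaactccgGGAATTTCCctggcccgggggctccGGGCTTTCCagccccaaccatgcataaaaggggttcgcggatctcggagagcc
CXCL2: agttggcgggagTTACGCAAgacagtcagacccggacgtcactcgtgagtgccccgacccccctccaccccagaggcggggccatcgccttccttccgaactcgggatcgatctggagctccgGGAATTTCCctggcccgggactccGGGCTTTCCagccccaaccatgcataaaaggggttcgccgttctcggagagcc
CXCL3: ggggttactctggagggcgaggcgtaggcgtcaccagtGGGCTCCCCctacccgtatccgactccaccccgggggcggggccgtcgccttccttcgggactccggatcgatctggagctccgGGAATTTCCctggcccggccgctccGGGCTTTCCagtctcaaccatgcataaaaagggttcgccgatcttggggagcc
IL6: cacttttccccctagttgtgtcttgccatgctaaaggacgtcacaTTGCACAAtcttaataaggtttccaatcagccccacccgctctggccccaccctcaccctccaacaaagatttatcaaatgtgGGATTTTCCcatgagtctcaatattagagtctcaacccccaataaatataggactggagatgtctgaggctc

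The motifs searched were the AP-1 site TGANTCA, a C/EBP type motif TTNNGNAA and the kappa B consensus of NF-kB, on both strands, and no 2 matches in the windows overlapped. The kappa B consensus was searched with any base allowed at its first position, here and in the share of windows below. The CXCL8 match, the matches at 53 to 45 and the CXCL3 match at 162 to 154 have a base other than G there. The kappa B consensus was matched at 91 to 83 bases before the CXCL8 start, and at 78 to 70 and 53 to 45 bases before the CXCL1 start. CXCL3 had both of the CXCL1 positions and a further match at 162 to 154, and CXCL2 had matches at 77 to 69 and 53 to 45. IL6 had its kappa B match at 72 to 64. Of the 34941 RefSeq promoter windows of this length, 11.1% held the kappa B consensus, 5.39% the AP-1 site and 26.9% the C/EBP type motif. AP-1 was matched in CXCL8 at 137 to 131 and in IL11 at 96 to 90, and the C/EBP type motif in CXCL2 at 188 to 181 and in IL6 at 155 to 148. CXCL12 had no match, and CCL2, LIF and CSF1 had no window to search. A match describes letters in the window and is not a measurement of binding.

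**Figure D1:**
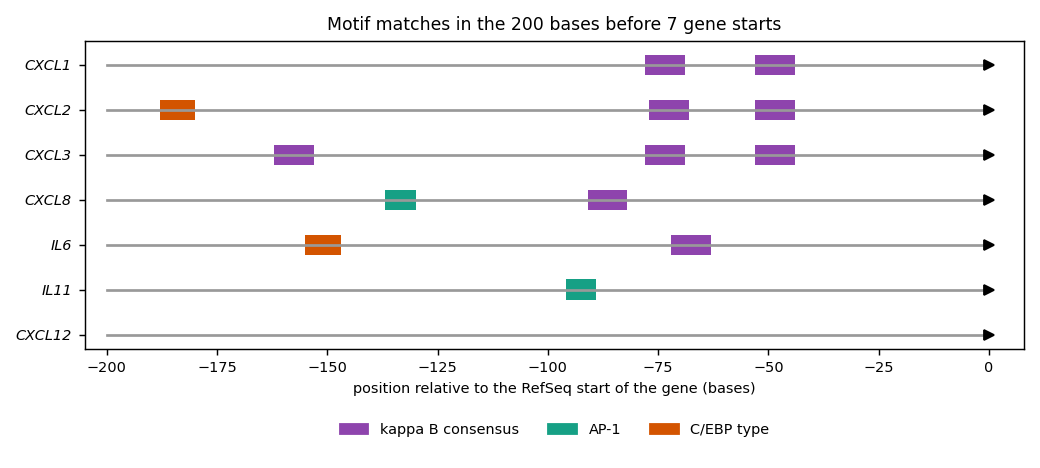
Map of motif matches in the 200 bases before the RefSeq start of 7 of the 10 genes, with distance from the start in bases on the x axis, 1 gene per row, the arrow at the start and a coloured bar for each match. CXCL1, CXCL2 and CXCL3 share a pair of kappa B matches within 78 bases of the start.

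Levels are given in CPM, the reads of a gene relative to all reads of its library, after TMM factors scaled the libraries to each other. Divided by the length of the gene's exons in kilobases, so that genes can be compared, the order of the means differed between lines. In RasV12 the level per kilobase was 309 ± 467 for CXCL8, 65 ± 23.2 for LIF, 34 ± 30.1 for CXCL3 and 9.98 ± 10.9 for CXCL2, and CCL2 had 0.0479 ± 0.0568 (CPM per kilobase, SD, n = 3). In T53D4 LIF led with 40.8 ± 12.3, followed by CCL2 with 31.8 ± 18.8, CXCL8 with 15.5 ± 4.99 and CSF1 with 6.55 ± 1.59 CPM per kilobase, and CXCL3 had 0.575 ± 0.0914. CXCL8 led in RasV12 through replicate 3, which held 848 CPM per kilobase of CXCL8 and 91.2 of LIF. In RasV12 replicates 1 and 2 LIF led, as in T53D4, with 56.8 and 47.1 CPM per kilobase, and CXCL8 had 35.3 and 42.7. CXCL12 was lowest per kilobase in T53D4, at 0.00495 ± 0.00576. In bulk RNA fewer cells expressing a gene and less RNA per cell cannot be told apart.

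**Figure D2:**
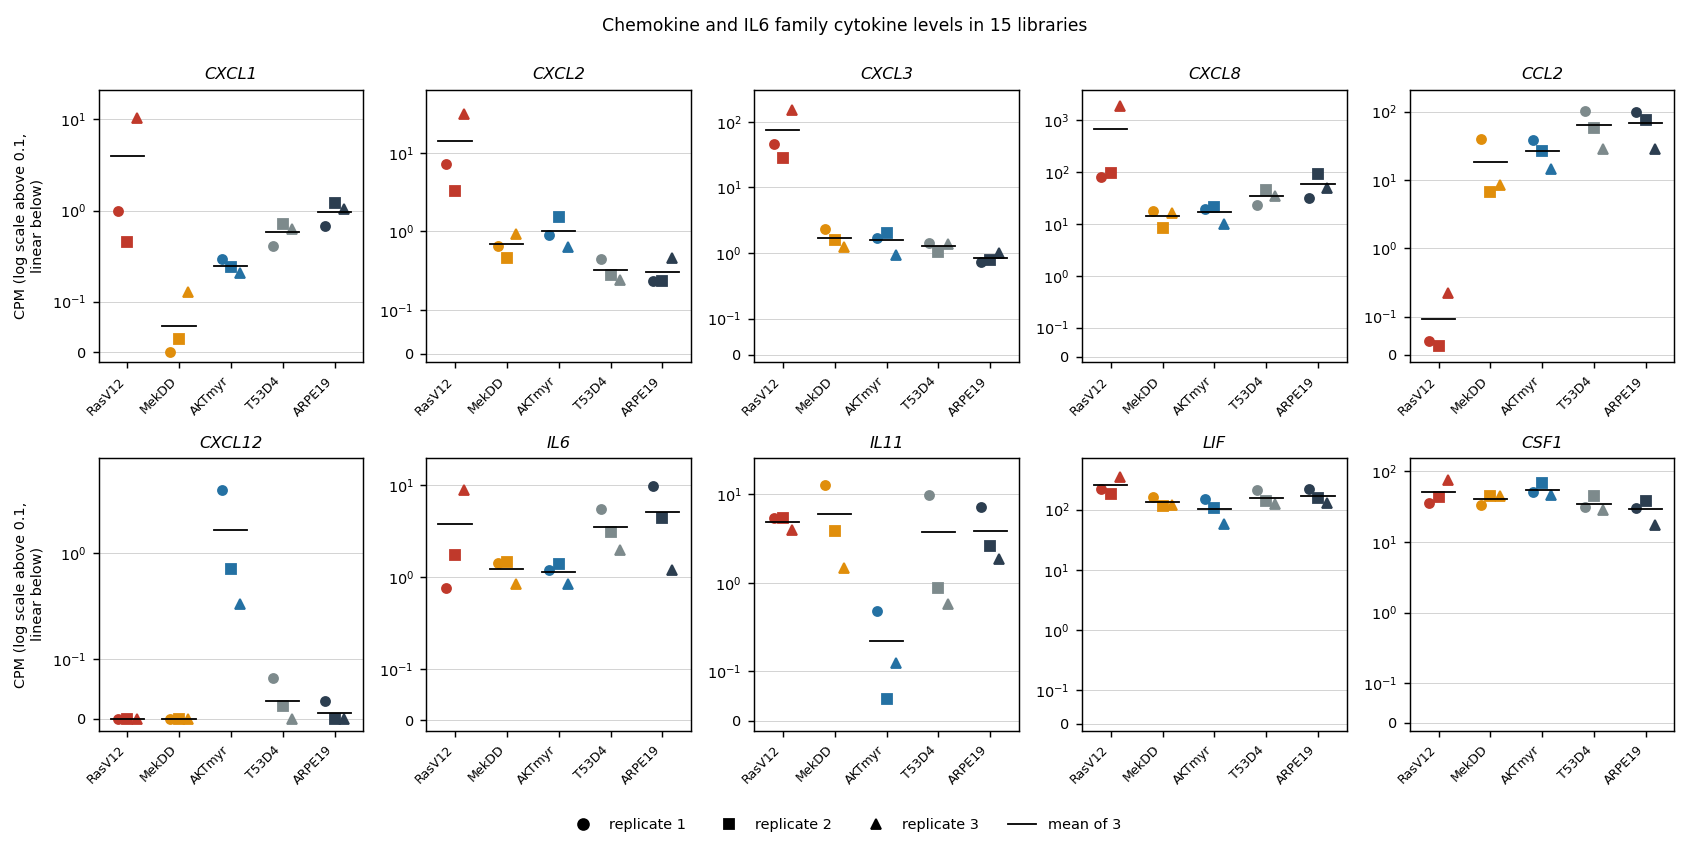
Levels of the 10 genes in CPM in each of the 15 libraries (y axis, logarithmic above 0.1 CPM and linear below), by line on the x axis, with marker shape for the replicate number and a bar for the mean of 3. RasV12 replicate 3 is the highest library for CXCL1, CXCL2, CXCL3 and CXCL8, CCL2 is near 0 in all 3 RasV12 libraries, and CXCL12 has more than 0.1 CPM in the AKTmyr libraries alone.

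In the RAS line the neutrophil-attracting chemokines and CCL2 moved apart. RasV12 cells had more CXCL1, CXCL2, CXCL3 and CXCL8 RNA than T53D4 cells and almost no CCL2, and IL6, IL11, LIF, CSF1 and CXCL12 did not pass the test. Of the 10 genes 4 rose and 1 fell in RasV12 versus T53D4, where 10.8% of all tested genes rose and 13.6% fell, 24.4% in all. Their median log2 fold change was 0.62, against 0.01 over all genes tested. Without RasV12 replicate 3 the calls were CXCL2 and CXCL3 higher and CCL2 lower, 3 in all.

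CXCL3 (ENSG00000163734, hg38 chromosome 4, 74036589 to 74038807, minus strand) had 46.6, 28.1 and 152 CPM in RasV12 replicates 1, 2 and 3, against 1.4, 1.04 and 1.38 CPM in T53D4. MekDD had 2.31, 1.6 and 1.23 CPM, AKTmyr 1.7, 2.05 and 0.917 CPM, and ARPE19 0.732, 0.794 and 1 CPM. Every RasV12 library lay above all 12 other libraries. CXCL3 rose in RasV12 with a log2 fold change of 5.90 (SE 0.58, edgeR adjusted p = 9.38e-06), and without RasV12 replicate 3 the log2 fold change was 4.88 (adjusted p = 2.66e-06).

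CXCL2 (ENSG00000081041, chromosome 4, 74097040 to 74099196, minus strand) had 7.19, 3.29 and 31.4 CPM in RasV12, against 0.445, 0.282 and 0.238 CPM in T53D4. It stood at 0.458 to 0.93 CPM in MekDD, 0.625 to 1.52 CPM in AKTmyr and 0.231 to 0.458 CPM in ARPE19, again below every RasV12 library. CXCL2 rose in RasV12 against T53D4 by log2 5.41 (SE 0.77, edgeR adjusted p = 0.000187), and by 4.0 without RasV12 replicate 3 (adjusted p = 0.000135). Across the 15 libraries CXCL2 and CXCL3 had a Pearson correlation of 0.95 in log2 CPM, the highest of any pair of the 10 genes, over libraries that include the 3 from RasV12 cells.

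CXCL8 (ENSG00000169429, chromosome 4, 73740541 to 73743716, plus strand), also called interleukin 8, had 79, 95.5 and 1899 CPM in RasV12, against 23.5, 45.8 and 35 CPM in T53D4. MekDD had 17.4, 8.37 and 16.4 CPM, AKTmyr 19.8, 21.6 and 9.88 CPM, and ARPE19 32.1, 93.7 and 48.5 CPM. The RasV12 libraries did not overlap those of T53D4, but RasV12 replicate 1 lay below ARPE19 replicate 2. CXCL8 rose in RasV12 against T53D4 by log2 4.31 (SE 1.01, edgeR adjusted p = 0.00656). Without RasV12 replicate 3 the difference was 1.33 and did not pass (adjusted p = 0.0512).

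CXCL1 (ENSG00000163739, chromosome 4, 73869393 to 73871308, plus strand) was scarce outside RasV12 replicate 3, with 0.986, 0.449 and 10.5 CPM in RasV12, against 0.411, 0.716 and 0.619 CPM in T53D4. MekDD had 0, 0.0254 and 0.127 CPM, AKTmyr 0.208 to 0.297 CPM and ARPE19 0.674 to 1.2 CPM. RasV12 replicate 2 lay inside the range of T53D4. CXCL1 rose by log2 2.73 (SE 0.89, edgeR adjusted p = 0.0386), a call that was lost without RasV12 replicate 3 (log2 0.26, adjusted p = 0.792), without T53D4 replicate 1, 2 or 3 (adjusted p = 0.111, 0.0881 and 0.0898), with the replicate number as a block (log2 2.03, adjusted p = 0.0652) and with the 2 lines alone (adjusted p = 0.108). CXCL1, CXCL2 and CXCL3 are similar in sequence, with 88.6% identity between the CXCL1 and CXCL2 transcripts. The CXCL3 transcript had less, 73.3% with CXCL1 and 73.8% with CXCL2, with gaps in the alignment counted as differences. The longest exact stretch was however between CXCL2 and CXCL3, with 97 bases, against 77 between CXCL1 and CXCL2. Although no exact stretch of 150 bases, the read length, was shared, how reads were split between the 3 genes is uncertain. With the 3 summed into 1 row, that row and CXCL8 rose and CCL2 fell.

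CCL2 (ENSG00000108691, chromosome 17, 34255218 to 34257203, plus strand) showed the opposite change. It had 0.0365, 0.0236 and 0.225 CPM in RasV12, which were 7 reads over 3 libraries, against 103, 58.3 and 28.3 CPM in T53D4. MekDD had 39.9, 6.74 and 8.54 CPM, AKTmyr 38.8, 26.2 and 14.5 CPM, and ARPE19 99.7, 75.8 and 28.3 CPM. Every RasV12 library lay below all 12 other libraries. CCL2 fell in RasV12 against T53D4 with a log2 fold change of -9.60 (SE 1.15, edgeR adjusted p = 4.24e-05), a fitted 776-fold lower level, and with single libraries left out the log2 value ran from -10.92, without RasV12 replicate 3, to -8.97.

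**Figure D3:**
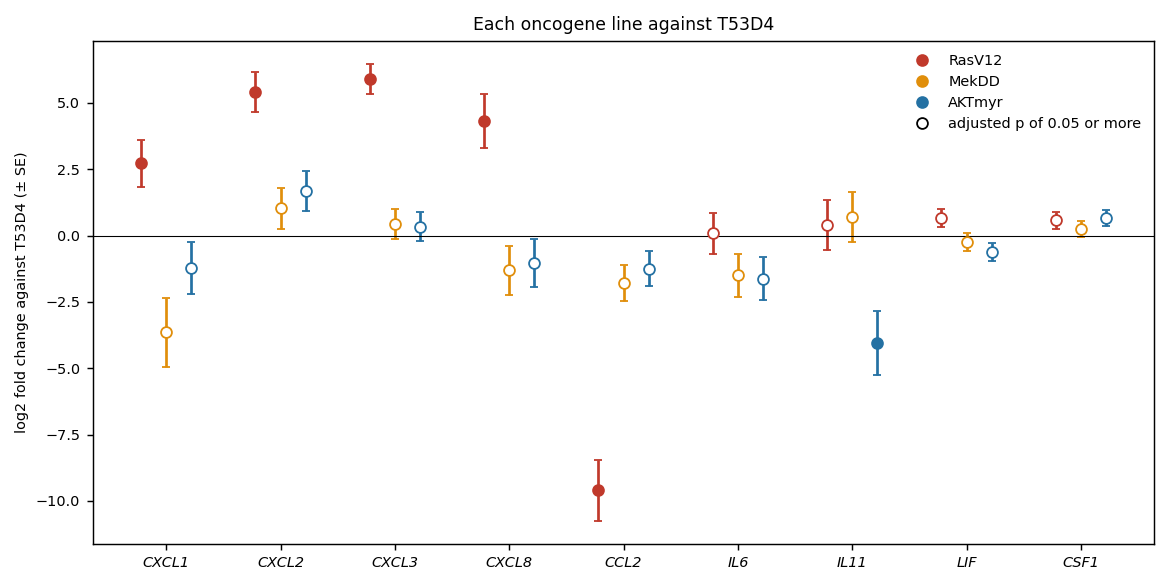
Log2 fold change against T53D4 (y axis, with bars of 1 SE) for 9 of the 10 genes on the x axis in RasV12, MekDD and AKTmyr, filled where the adjusted p is under 0.05. CXCL12 is left out because T53D4 held 3 reads of it. The filled points are CXCL1, CXCL2, CXCL3, CXCL8 and CCL2 in RasV12 and IL11 in AKTmyr, and the 3 lines share the T53D4 libraries.

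RasV12 replicate 3 had the highest level of 15 libraries for CXCL1, CXCL2, CXCL3, CXCL8, LIF and CSF1 and the second highest for IL6. Against the mean of RasV12 replicates 1 and 2 it held 21.8 times the CXCL8, 14.6 times the CXCL1, 5.99 times the CXCL2, 4.07 times the CXCL3 and 7.12 times the IL6. The ratio was 1.93 for CSF1, 1.76 for LIF and 0.727 for IL11, so IL11 did not share the pattern. NFKBIA and TNFAIP3, inhibitors that NF-kB itself switches on, and NFKBIZ, a nuclear cofactor of NF-kB, were also higher in that library, with 97.1, 39.9 and 67.5 CPM, against 37.7, 5.77 and 21.6 CPM in replicate 1 and 30, 6.22 and 14.9 CPM in replicate 2. TNFAIP3 had 21.2 to 24.7 CPM in ARPE19. Other genes of the same NF-kB and C/EBP list differed less between the RasV12 libraries, such as BCL3 (13 to 14 CPM), IKBKB (46.1 to 52.2 CPM) and CEBPB (244 to 275 CPM). NFKBIA, TNFAIP3, NFKBIZ, CCL20, CSF2 and CSF3 are named after their values were seen. CCL20, a chemokine for immature dendritic cells, had 1.57, 0.969 and 19.3 CPM in RasV12, CSF2 0.511, 1.04 and 10.2 CPM, and CSF3, the neutrophil growth factor, 0.0365, 0.0709 and 4.95 CPM. What set this library apart was not tested.

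**Figure D4:**
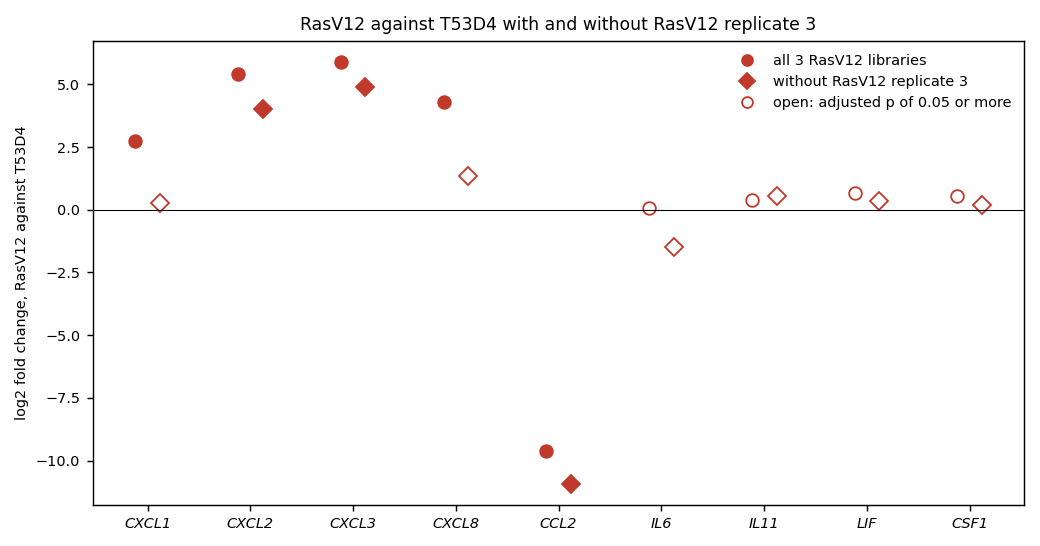
Log2 fold change of 9 genes in RasV12 against T53D4 with all 3 RasV12 libraries (circles) and without RasV12 replicate 3 (diamonds), filled where the adjusted p is under 0.05. CXCL2, CXCL3 and CCL2 stay filled, CXCL1 moves to 0.26, CXCL8 to 1.33 and IL6 to -1.47.

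In neither MekDD nor AKTmyr were the 4 neutrophil-attracting genes at the RasV12 level. In RasV12 versus MekDD 4 of the 10 genes rose and 1 fell, where 7.17% of all tested genes rose and 8.33% fell, 15.5% in all. CXCL3 was higher by log2 5.45 (SE 0.56), CXCL2 by 4.37 (SE 0.71), CXCL8 by 5.62 (SE 1.08) and CXCL1 by 6.38 (SE 1.22), and CCL2 had a log2 fold change of -7.82 (SE 1.15), with edgeR adjusted p between 2.63e-05 and 0.00294. All 5 kept their call without RasV12 replicate 3, where CXCL8 had 2.64 (adjusted p = 0.00261), CXCL1 3.91 (adjusted p = 0.00385), CXCL2 2.96 (adjusted p = 0.00146) and CXCL3 4.44 (adjusted p = 7.24e-06). In that fit 1593 of all genes were called. In RasV12 versus AKTmyr 6 rose and 2 fell, where 19.6% of all tested genes rose and 20.7% fell, 40.4% in all. The same 4 chemokines were higher, CXCL3 by log2 5.56 (SE 0.56) and CXCL2 by 3.74 (SE 0.68), CXCL8 by 5.33 (SE 1.06) and CXCL1 by 3.94 (SE 0.97), and without RasV12 replicate 3 CXCL1 lost its call (log2 1.47, adjusted p = 0.0582). CXCL8, CXCL2 and CXCL3 kept theirs without that library, with lower values of 2.35, 2.34 and 4.56 (adjusted p = 0.00168, 0.00171 and 2.07e-06).

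Set against the untransfected parental line, 3 of the 10 genes rose and 1 fell in RasV12 versus ARPE19, where 14.4% of all tested genes rose and 16.2% fell, 30.7% in all. CXCL3 rose by log2 6.49 (SE 0.60), CXCL2 by 5.53 (SE 0.78) and CXCL8 by 3.57 (SE 0.98), and CCL2 fell with a log2 fold change of -9.71 (SE 1.15), with edgeR adjusted p = 5.66e-06, 0.000158, 0.0132 and 3.93e-05. The CXCL8 call was lost without RasV12 replicate 3 (log2 0.59, adjusted p = 0.358) and without ARPE19 replicate 1 (3.27, adjusted p = 0.0568), and with the 2 lines alone (adjusted p = 0.057). CXCL3 and CXCL2 kept theirs without RasV12 replicate 3, with 5.48 and 4.12 (adjusted p = 1.93e-06 and 0.000119). CXCL1 had 2.00 (SE 0.85, adjusted p = 0.0912) and -0.46 without RasV12 replicate 3. It passed without RasV12 replicate 1 or 2 (adjusted p = 0.0485 and 0.0217).

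CCL2 was also lower on average in MekDD and AKTmyr than in T53D4, by less than the test required with line as the sole factor. With the replicate number as a block both differences passed. It averaged 18.4 ± 18.6 CPM in MekDD and 63.1 ± 37.4 CPM in T53D4, a log2 difference of -1.78 (SE 0.67, edgeR adjusted p = 0.171). AKTmyr averaged 26.5 ± 12.1 CPM, a log2 difference from T53D4 of -1.25 (SE 0.66, adjusted p = 0.199). Same-numbered libraries deviated together, and replicate 1 held the highest CCL2 of its line in 4 of 5 lines. With the replicate number as a block CCL2 fell in both lines, by 1.94 in MekDD (adjusted p = 0.00443) and by 1.17 in AKTmyr (adjusted p = 0.0209) on the log2 scale, and it passed in MekDD without MekDD replicate 1 as well (-3.05, adjusted p = 0.0195). Against ARPE19 the log2 difference of AKTmyr was -1.36 (adjusted p = 0.184), and -1.31 with the block (adjusted p = 0.0139), while that of MekDD was -1.89 (adjusted p = 0.0913) and passed without MekDD replicate 1 (adjusted p = 0.0137) or ARPE19 replicate 3 (adjusted p = 0.0493).

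With line as the sole factor, the test found no difference between MekDD and T53D4 in these genes. None of the 10 was called in MekDD versus T53D4, where 2.27% of all tested genes rose and 2.83% fell, 5.10% in all. By edgeR 2378 of the 13599 genes were under 0.05 before adjustment. The replicate block called CCL2 and no other of the 10, and CXCL1 was the single call by DESeq2 and with the 2 lines alone. The median log2 fold change of the 10 genes was -0.78. CXCL1 had 4 reads over the 3 MekDD libraries and 58 over the 3 T53D4 libraries, which did not overlap, and its log2 difference of -3.65 (SE 1.30, edgeR adjusted p = 0.143) did not pass. In MekDD versus ARPE19, where 4.61% of all tested genes rose and 6.27% fell, 10.9% in all, CXCL1 was the single call, with -4.37 (SE 1.26, adjusted p = 0.0399), and it was lost with each of the 6 libraries left out in turn (adjusted p from 0.051 to 0.143).

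CXCL12 (ENSG00000107562, chromosome 10, 44370165 to 44386493, minus strand), which retains stem cells and lymphocytes in their niches, was detected in AKTmyr. It had 3.86, 0.705 and 0.333 CPM in AKTmyr, or 143, 32 and 8 reads, against 2, 1 and 0 reads in T53D4. ARPE19 had 1 read in all, and RasV12 and MekDD had 0 in each library. The AKTmyr libraries lay above all 12 others, with replicate 1 well above replicates 2 and 3. Of the 10 genes CXCL12 rose and IL11 fell in AKTmyr versus T53D4, where 9.91% of all tested genes rose and 10.2% fell, 20.1% in all. CXCL12 passed the test (edgeR adjusted p = 0.00998), at 55.2 times the T53D4 level with an exact binomial 95% interval of 18.6 to 270, which covers counting error only. The filter on low counts kept it through the AKTmyr libraries alone, so a high level there was a condition of its test. Leaving out 1 library moved its adjusted p between 0.00503 and 0.0456. RasV12 was at least 52.7-fold lower than AKTmyr and MekDD at least 54.5-fold lower, taking 3 reads over a line as the floor. AKTmyr replicate 1 held 143 of the 183 reads, and without it the ratio to T53D4 was 18.5 (5.89 to 93.5) and the bounds for RasV12 and MekDD were 17.7-fold and 18.3-fold.

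IL11 (ENSG00000095752, chromosome 19, 55364382 to 55370463, minus strand), a gp130 cytokine tied to fibrosis and bone remodelling, was lowest in AKTmyr. AKTmyr had 0.486, 0.044 and 0.125 CPM, against 9.69, 0.868 and 0.571 CPM in T53D4. RasV12 had 5.37, 5.41 and 3.92 CPM, MekDD 12.7, 3.89 and 1.48 CPM, and ARPE19 7.09, 2.59 and 1.87 CPM. No AKTmyr library reached the lowest library of any other line. IL11 fell in AKTmyr against T53D4 with a log2 fold change of -4.06 (SE 1.20, edgeR adjusted p = 0.0288), and the call was lost without T53D4 replicate 1 (-1.74, adjusted p = 0.268), without AKTmyr replicate 2 or 3 (adjusted p = 0.0947 and 0.0702) and with the 2 lines alone (-4.03, adjusted p = 0.0783). Against ARPE19 it fell with -4.12 (SE 1.20, adjusted p = 0.0302), lost without AKTmyr replicate 2 or 3 or ARPE19 replicate 1 or 2 (adjusted p from 0.0502 to 0.105).

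IL11 was higher in RasV12 than in AKTmyr by log2 4.46 (SE 1.20, edgeR adjusted p = 0.00921) and in MekDD than in AKTmyr by 4.77 (SE 1.20, adjusted p = 0.0109), calls that held without any 1 library (adjusted p up to 0.0413 and 0.047). In MekDD versus AKTmyr 1 of the 10 genes rose, IL11, and 1 fell, CXCL12, where 12.7% of all tested genes rose and 13.5% fell, 26.2% in all. RasV12 and T53D4 overlapped in IL11, with a log2 difference of 0.40 (SE 0.94, adjusted p = 0.81), which reached 2.74 without T53D4 replicate 1 (adjusted p = 0.0499). In AKTmyr versus ARPE19 the calls were again CXCL12 higher and IL11 lower, where 7.98% of all tested genes rose and 8.86% fell, 16.8% in all, and the replicate block added CCL2 lower and CSF1 higher.

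IL6 (ENSG00000136244, chromosome 7, 22725884 to 22732002, plus strand), the founding member of the gp130 cytokines, passed in none of the 10 comparisons between lines by edgeR with all libraries. It had 0.767, 1.75 and 8.96 CPM in RasV12, 1.43, 1.45 and 0.845 CPM in MekDD, 1.19, 1.39 and 0.834 CPM in AKTmyr, 5.51, 3.1 and 2 CPM in T53D4 and 9.81, 4.46 and 1.21 CPM in ARPE19. All MekDD and AKTmyr libraries lay below all T53D4 libraries, with log2 differences of -1.50 (SE 0.80) and -1.62 (SE 0.80) and edgeR adjusted p = 0.368 and 0.17. RasV12 held the lowest and the second highest of the 15 libraries, with a log2 difference from T53D4 of 0.08 (SE 0.76, adjusted p = 0.955) and of -1.47 without RasV12 replicate 3 (adjusted p = 0.161). RasV12 passed against AKTmyr without RasV12 replicate 1 (adjusted p = 0.0387), and AKTmyr passed against ARPE19 without ARPE19 replicate 3 (adjusted p = 0.0396). AKTmyr passed against T53D4 with the 2 lines alone (-1.60, adjusted p = 0.045), and by DESeq2 MekDD and AKTmyr passed against ARPE19 (-2.06 and -2.17, adjusted p = 0.0416 and 0.0224). The exons of IL6 share 46 bases with those of STEAP1B on the other strand, so reads there cannot be told apart unless strand was used in counting.

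LIF (ENSG00000128342, chromosome 22, 30240453 to 30246759, minus strand), which signals through LIFR and gp130, was abundant in every line. It had 220, 182 and 353 CPM in RasV12, 161, 116 and 121 CPM in MekDD, 148, 104 and 57.8 CPM in AKTmyr, 212, 140 and 122 CPM in T53D4 and 216, 156 and 126 CPM in ARPE19. RasV12 lay above every MekDD and AKTmyr library and overlapped T53D4 and ARPE19. LIF rose in RasV12 against AKTmyr by log2 1.28 (SE 0.34, edgeR adjusted p = 0.00839), and without RasV12 replicate 3 by 0.96 (adjusted p = 0.0423). Against MekDD the difference was 0.92 (SE 0.34, adjusted p = 0.0841, and 0.97 with adjusted p = 0.0251 with the replicate block), and against T53D4 0.67 (SE 0.34, adjusted p = 0.17).

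CSF1 (ENSG00000184371, chromosome 1, 109910242 to 109930992, plus strand) had line means between 28.7 CPM in ARPE19 and 54.7 CPM in AKTmyr. It had 34.8, 43.3 and 75.4 CPM in RasV12, 32.9, 44.6 and 44.7 CPM in MekDD, 50.7, 67.9 and 45.5 CPM in AKTmyr, 31, 43.8 and 28.1 CPM in T53D4 and 30.4, 38.2 and 17.4 CPM in ARPE19. The AKTmyr libraries lay above those of T53D4 and ARPE19 without overlap, by log2 0.67 (SE 0.31) and 0.93 (SE 0.31), with edgeR adjusted p = 0.141 and 0.0551. The difference of AKTmyr from ARPE19 passed with the replicate block (adjusted p = 0.0295) and by DESeq2 (adjusted p = 0.0203). RasV12 differed from ARPE19 by 0.83 (SE 0.31, adjusted p = 0.057), which passed without RasV12 replicate 1 (1.05, adjusted p = 0.0292) or ARPE19 replicate 2 (1.09, adjusted p = 0.0345), with the replicate block (0.85, adjusted p = 0.0338) and by DESeq2 (adjusted p = 0.0316).

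No difference between T53D4 and ARPE19 was detected in the 10 genes. In T53D4 versus ARPE19 edgeR called 0 of them, where 0.0368% of all tested genes rose and 0.118% fell, 0.154% in all. Before adjustment 1456 of all genes were under 0.05, and the replicate block and DESeq2 also called 0 of the 10. The median log2 fold change was -0.07, and differences ran from -0.74 for CXCL8 (SE 0.89, edgeR adjusted p = 0.838) to 0.59 for CXCL3 (SE 0.59, adjusted p = 0.787), leaving aside CXCL12 with 3 reads in T53D4 and 1 in ARPE19.

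Replicate number was shared across lines in several of these genes. Replicate 1 was the highest of its line in 4 of 5 lines for CCL2, IL11 and LIF, with RasV12 the exception in each. In T53D4 the IL11 level of replicate 1 was 9.69 CPM, against 0.868 and 0.571 CPM in replicates 2 and 3. The labels do not say what a number marks.

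Receptors for the ligands moved in their own ways. CXCR4, the CXCL12 receptor, had 24.5, 10.6 and 13.7 CPM in RasV12, 20.5, 14.6 and 20.9 CPM in MekDD and 1, 0.374 and 0.542 CPM in AKTmyr, against 2.67, 1.26 and 3.33 CPM in T53D4. It rose in RasV12 by log2 2.78 (SE 0.42) and in MekDD by 2.98 (SE 0.42) and fell in AKTmyr with -1.89 (SE 0.47), with edgeR adjusted p = 0.000305, 0.00067 and 0.0128. AKTmyr, where CXCL12 was detected, had the lowest mean CXCR4 of the 5 lines. ACKR3, the CXCL12 scavenger, averaged 1.38 ± 0.52 CPM in RasV12, 26.4 ± 4.33 CPM in MekDD and 60.6 ± 25.3 CPM in AKTmyr, against 83 ± 36.6 CPM in T53D4. It fell in RasV12 (log2 -5.91, SE 0.51, adjusted p = 3.36e-06) and MekDD (-1.66, SE 0.41, adjusted p = 0.0293), and in AKTmyr it did not pass (-0.45, SE 0.39, adjusted p = 0.446).

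LIFR, the LIF receptor, rose in all 3 oncogene lines against T53D4, with 8.74 ± 1.81 CPM in RasV12, 7.05 ± 1.4 CPM in MekDD and 8.67 ± 0.962 CPM in AKTmyr, against 3.76 ± 0.321 CPM in T53D4 (log2 1.22, 0.91 and 1.20, SE 0.22 each, edgeR adjusted p = 0.00114, 0.0272 and 0.00248). These 3 comparisons share the T53D4 libraries. Of 6 tested IL6 family and CSF1 receptors, 3 rose and 0 fell in RasV12, 1 rose in MekDD and 1 in AKTmyr, where 24.4%, 5.10% and 20.1% of all tested genes were called. Without RasV12 replicate 3, 2 rose in RasV12, where 2862 of all genes were called. Against ARPE19, 2 of the 6 rose in RasV12, 0 in MekDD and 2 in AKTmyr, where 30.7%, 10.9% and 16.8% of all tested genes were called. LIFR was therefore not called in MekDD against ARPE19, which averaged 4.57 ± 1.18 CPM of it. Of 12 listed chemokine receptors 5 were in the table and 4 were tested, of which 2 rose and 1 fell in RasV12, 1 rose and 1 fell in MekDD and 1 fell in AKTmyr, set against the same shares of all genes, so that the single AKTmyr call is near its share. CXCR1, CXCR2 and CCR2 were among those listed and were not found by symbol in the table, whose smallest row total was 10 reads.

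Of 5 tested ligands among 10 other IL6 family and colony-stimulating factors, 1 rose and 1 fell in RasV12 against T53D4, 0 were called in MekDD and 1 fell in AKTmyr, and without RasV12 replicate 3 RasV12 had 0 calls among 6. The shares of all tested genes called were 24.4% in RasV12, 5.10% in MekDD and 20.1% in AKTmyr. Without RasV12 replicate 3, RasV12 versus T53D4 had 2862 calls over all genes. Among 4 other chemokines tested of 19 listed, 2 rose and 2 fell in RasV12 against T53D4, 1 fell in MekDD and 1 rose in AKTmyr, and without RasV12 replicate 3 the RasV12 counts were 1 and 2. CCL26, an eotaxin that attracts eosinophils, averaged 0.972 ± 0.338 CPM in RasV12 and 1 ± 0.313 CPM in AKTmyr, against 0.212 ± 0.124 CPM in T53D4 (log2 2.17 and 2.20, SE 0.49 each, edgeR adjusted p = 0.0052 and 0.00748). ARPE19 averaged 0.466 ± 0.189 CPM of CCL26. In AKTmyr versus ARPE19, 0 of these 4 chemokines were called, where 16.8% of all tested genes were. CXCL14, a chemokine of epithelia, had 0.0365, 0 and 0.045 CPM in RasV12 and 0 in each MekDD library, against 0.103, 0.477 and 0.81 CPM in T53D4, and fell in both (adjusted p = 0.00884 and 0.0105). MekDD was at least 13.8-fold lower in CXCL14, and RasV12 20 times lower with an interval of 5.21 to 171.

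Relay genes between ligand and response are set against the 24.4%, 5.10% and 20.1% of all tested genes called in RasV12, MekDD and AKTmyr versus T53D4. Of 13 JAK, STAT and inhibitor genes, 2 rose and 3 fell in RasV12 against T53D4, 0 were called in MekDD, and 1 rose and 1 fell in AKTmyr. STAT5A fell in RasV12 (4.02 ± 1.24 CPM, against 8.5 ± 2.4 CPM in T53D4, log2 -1.09, SE 0.33) and in AKTmyr (3.67 ± 1.48 CPM, log2 -1.20, SE 0.33), with edgeR adjusted p = 0.0271 and 0.021. Of 16 NF-kB subunits, inhibitors and C/EBP genes, 2 rose and 1 fell in RasV12, 0 were called in MekDD and 2 fell in AKTmyr. For a list of 16 genes, these shares of 18.8%, 0% and 12.5% are near those of all genes. CEBPB, outside the rule for naming genes and named after its values were seen, averaged 255 ± 17.2 CPM in RasV12, against 108 ± 13.4 CPM in T53D4. Without RasV12 replicate 3 it rose by log2 1.27 (SE 0.25, edgeR adjusted p = 0.00294). IKBKB, a kinase that activates NF-kB, averaged 48.4 ± 3.33 CPM in RasV12 and 39.1 ± 2.14 CPM in AKTmyr, against 61.4 ± 1.34 CPM in T53D4 (log2 -0.34 and -0.65, SE 0.11 each, adjusted p = 0.0358 and 0.00157), and missed the test in RasV12 without replicate 3 (adjusted p = 0.0969). Of 8 genes for decay and stability of cytokine messages, 0 were called in RasV12 or MekDD, and 1 rose and 1 fell in AKTmyr.

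**Figure D5:**
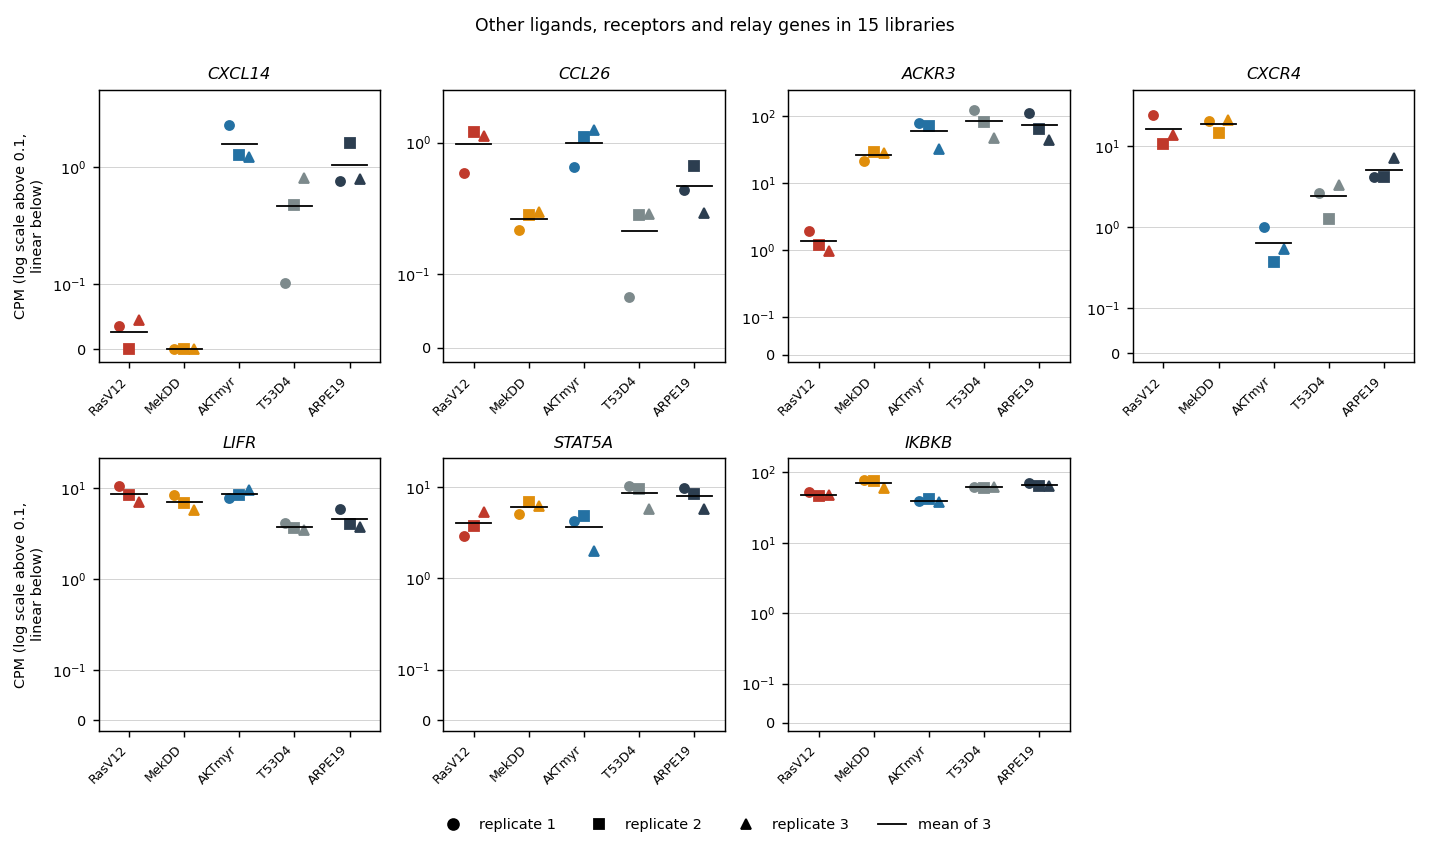
Levels in CPM (y axis, logarithmic above 0.1 CPM and linear below) of 7 ligand, receptor and relay genes in the 15 libraries, by line on the x axis, with marker shape for the replicate and a bar for the mean of 3. CXCR4 is highest in RasV12 and MekDD, ACKR3 lowest in RasV12, and LIFR is above T53D4 in every RasV12, MekDD and AKTmyr library.

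Genes outside the list were ranked by how closely their log2 CPM followed 4 of the 10 genes over the 15 libraries, among 12217 genes of at least 1 CPM on average. CCL2 was followed most closely by FAM110C and MYO1D (Pearson correlation 0.98 for both) and TTC9 (0.97). FAM110C averaged 0.103 ± 0.106 CPM in RasV12 and 18.8 ± 10.2 CPM in T53D4. CXCL8 was followed by SERPINB2, plasminogen activator inhibitor 2 (0.93), CTSS, a lysosomal protease (0.90), and GRB14 (0.88). SERPINB2 had 3.5, 4.28 and 74.2 CPM in RasV12 replicates 1, 2 and 3, high in the same library as CXCL8. LIF was followed by DLG4 (0.90), CD151 and PTPRU (0.88 each), and IL6 by HIVEP1 (0.86), GCH1 (0.85) and MPZL1 (0.82). These values share the libraries and their depth and describe likeness only.

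Markers of leukocytes were checked because they make several of these factors. Of 9 leukocyte and macrophage markers 6 were in the table, and their summed level was 295 to 365 CPM in RasV12, 136 to 196 CPM in MekDD, 123 to 167 CPM in AKTmyr, 92 to 185 CPM in T53D4 and 156 to 181 CPM in ARPE19. Of the 3 that could be tested, 2 rose and 1 fell in RasV12 against T53D4, where 24.4% of all tested genes were called. CD68, a lysosomal protein found in many cell types, made up most of each sum, and it rose in RasV12 against T53D4 (314 ± 30.3 CPM, against 142 ± 51.5 CPM, edgeR adjusted p = 0.0032). The defining markers PTPRC and CD14 were near 0, at no more than 0.208 and 0.38 CPM in any library. ITGAM, the marker that fell, averaged 0.015 ± 0.026 CPM in RasV12, against 0.838 ± 0.788 CPM in T53D4. In ARPE19 it averaged 1.44 ± 1.23 CPM and reached 2.81 CPM. CSF1R, the CSF1 receptor, is on both this list and that of receptors, and had 12.1, 12 and 21.3 CPM in RasV12, against 6.23, 3.51 and 3.1 CPM in T53D4. The 5 fibroblast markers summed to 23.3 to 36.9 CPM in RasV12, 25.5 to 55.5 CPM in MekDD, 78.7 to 232 CPM in AKTmyr, 82.6 to 117 CPM in T53D4 and 49.9 to 156 CPM in ARPE19, led by PDGFRB, with DCN at no more than 0.856 CPM. The 5 endothelial markers summed to no more than 5.76 CPM in any library. Of 9 tested retinal pigment epithelium markers 0 rose and 4 fell in RasV12 against T53D4, where 13.6% of all tested genes fell, and their list summed to 855 to 1035 CPM in RasV12, 1119 to 1398 CPM in MekDD, 1323 to 2027 CPM in AKTmyr, 1583 to 1942 CPM in T53D4 and 2453 to 2527 CPM in ARPE19. The part of these marker differences in the results above was not tested.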

How the data were processed

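The authors deposited a table of raw counts with 1 column for each of 15 libraries, and all columns matched a sample label. The build was hg38, and the tools listed include HISAT2 2.1.0 and featureCounts 1.6.4, with no role or order, both per the submitters' processing notes. Whether counting used strand is not given in the sources used here. The table held 15517 rows, of which 7 are construct sequences and were left out of library sizes and tests, and its smallest row total was 10 reads. Other deposited tables were not used.

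Low genes were removed (filterByExpr, lines as groups, minimum count 10), and TMM factors set the scale. All 15 libraries entered 1 quasi-likelihood fit in edgeR 4.0.16 under R 4.3.3, with line as the sole factor, which gave 10 comparisons, Benjamini-Hochberg adjustment over 13599 genes, and a call under 0.05. The SE of a log2 fold change was taken from the quasi-likelihood F statistic. The test was checked on simulated counts. Error values are SD over 3 libraries. No molecular identifiers are mentioned for these reads, so intervals and floors cover counting error only.

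The 10 genes and all lists were chosen with earlier results of these data known. All 10 genes are named in every comparison, and of each list the genes called in 2 or more of the 3 comparisons with T53D4. Same-numbered libraries deviated together: of 30 pairs, 27 had a correlation of deviations over 0.1 (0.01 to 0.72). The exceptions were in RasV12 versus AKTmyr, RasV12 versus ARPE19 and MekDD versus ARPE19. In the other 7 comparisons every pair was over 0.1, a likeness that the fit with line alone does not take into account. The labels do not say what a number marks, so whether the libraries were prepared in pairs is not known. Counts for the lists of other genes come from fits without the replicate block. Alternatives were median-of-ratios size factors, no filter, the replicate block, construct rows kept, CXCL1, CXCL2 and CXCL3 summed, 2 lines alone, DESeq2 1.42.0 and each library left out. Promoter sequences are RefSeq's (GRCh38.p14).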

Additional observations from a re-analysis of the deposited data

How the results depend on the processing

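With the replicate number as a block, more genes were called in most comparisons: 1589 in MekDD versus T53D4, 4738 in AKTmyr versus T53D4, 232 in T53D4 versus ARPE19, 3588 in RasV12 versus MekDD, 5481 in MekDD versus AKTmyr, 3064 in MekDD versus ARPE19 and 4027 in AKTmyr versus ARPE19, against 694, 2738, 21, 2108, 3560, 1479 and 2290 without it. Of the 10 genes the block called 1 in MekDD versus T53D4, 2 in MekDD versus ARPE19 and 4 in AKTmyr versus ARPE19, against 0, 1 and 2, and the log2 difference of IL11 in RasV12 versus MekDD was 0.30 with it and -0.30 without. With the 2 lines alone, 1 of the 10 was called in MekDD versus T53D4, 2 in MekDD versus ARPE19 and 4 in AKTmyr versus ARPE19, with IL6 in place of IL11 in AKTmyr versus T53D4, and 1449 genes in AKTmyr versus T53D4, 2 in T53D4 versus ARPE19, 2349 in MekDD versus AKTmyr and 1365 in AKTmyr versus ARPE19. DESeq2 gave no adjusted p for CXCL8. It called 1, 2 and 4 of the 10 in MekDD versus T53D4, MekDD versus ARPE19 and AKTmyr versus ARPE19, and 1116 genes in MekDD versus T53D4 and 188 in T53D4 versus ARPE19. With CXCL1, CXCL2 and CXCL3 summed, which leaves fewer rows, 3 were called in RasV12 versus T53D4, 3 in RasV12 versus MekDD and 0 in MekDD versus ARPE19. Median-of-ratios scaling, no filter and construct rows kept left these counts within 1.5 times. The cause of these shifts was not tested.

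With single libraries left out, the calls among the 10 ran from 3 to 5 in RasV12 versus T53D4, 0 to 1 in MekDD versus T53D4, 1 to 2 in AKTmyr versus T53D4, 0 to 1 in MekDD versus ARPE19 and 1 to 3 in AKTmyr versus ARPE19. Calls over all genes ran from 360 to 600 in MekDD versus T53D4, 1611 to 2669 in AKTmyr versus T53D4, 1 to 6 in T53D4 versus ARPE19, 1352 to 1815 in RasV12 versus MekDD, 2271 to 3698 in MekDD versus AKTmyr, 685 to 1603 in MekDD versus ARPE19 and 1328 to 2087 in AKTmyr versus ARPE19. They ran from 2534 to 2862 in RasV12 versus T53D4.

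Some log2 differences changed sign with a library left out. In RasV12 versus T53D4 IL6 ran from -1.47 to 0.57 and IL11 from -0.09 to 2.74, and in MekDD versus T53D4 IL11 ran from -0.45 to 3.03 and LIF from -0.41 to 0.03. In T53D4 versus ARPE19 CCL2 ran from -0.65 to 0.27, CXCL2 from -0.16 to 0.47, IL6 from -1.01 to 0.30, IL11 from -2.39 to 0.72 and LIF from -0.35 to 0.16. In RasV12 versus MekDD IL11 ran from -0.76 to 0.85 and CSF1 from -0.06 to 0.54, in RasV12 versus AKTmyr CSF1 from -0.49 to 0.12, and in MekDD versus AKTmyr CXCL3 from -0.16 to 0.36 and IL6 from -0.04 to 0.33. In RasV12 versus ARPE19 CXCL1 ran from -0.46 to 2.55 and IL6 from -2.02 to 0.39, and in MekDD versus ARPE19 IL11 from -0.50 to 1.43. None of these differences passed the test with all libraries in.

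Depth limits CXCL1 outside RasV12 and CXCL12 outside AKTmyr, where a library held 47 reads or fewer. It also limits CXCL1 in RasV12 replicates 1 and 2 (27 and 19 reads) and CXCL12 in AKTmyr replicates 2 and 3 (32 and 8 reads). Reads were few as well for CCL2 in RasV12 (1, 1 and 5), IL11 in AKTmyr (18, 2 and 3) and CXCL2 in T53D4 (13, 13 and 5).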
